A study of Mus musculus with 12 samples.

Results

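Transcripts of 10 genes were followed: beta-catenin (Ctnnb1), the destruction complex that degrades it (Apc, Axin1, Gsk3a, Gsk3b, Csnk1a1), the tankyrases that act on that complex (Tnks, Tnks2), and a pair of DNA-binding partners of beta-catenin (Tcf7l1, Tcf7l2). They were taken by gene symbol from a table of 55421 genes, and were chosen with earlier results of these data known. All 10 were found and passed the filter on low counts. RNA was sequenced from wild-type mouse gastric organoids, which are 3-dimensional epithelial cultures grown from isolated glands, in 12 libraries that form 4 groups of 3. The groups were inhibited antrum, vehicle antrum, inhibited corpus and vehicle corpus; corpus is the body of the stomach and antrum its outlet end. Each region was represented by lines 8025, 8026 and 8028. On day 4 after passage, cultures of the inhibited groups were moved for 24 h to medium without added Wnt and R-spondin, with XAV939 (labelled 1 mM) and Noggin at 100 ng/mL. The vehicle groups stayed in normal medium with DMSO, built on 50% L-WRN conditioned medium, which supplies Wnt3a, R-spondin and Noggin; their treatment label reads none. Serum made up 20% of the medium of corpus lines but 10% of that of antral lines. The effects of the compound and of the medium change cannot be told apart, nor can those of region and serum.

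In resting cells, Axin and APC hold beta-catenin so that casein kinase 1 alpha (Csnk1a1) and then glycogen synthase kinase 3 (Gsk3a, Gsk3b) phosphorylate it, which marks it for degradation. Tankyrases attach poly-ADP-ribose to Axin and so mark Axin itself for degradation; XAV939 blocks both tankyrases, which stabilises Axin and lowers beta-catenin. Beta-catenin that escapes enters the nucleus and binds TCF/LEF factors, and a separate pool links E-cadherin to the cytoskeleton at cell junctions. In the stomach this pathway maintains the stem and progenitor cells of the glands. Messenger RNA was measured here, and neither protein levels, phosphorylation nor tankyrase activity was.

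Transcription start regions are shown for Ctnnb1, Tnks2 and Tcf7l2, because these were the members that passed the test in both regions. RefSeq tables of build GRCm38.p6 listed 8 start regions for 6 of the 10 members, each with 250 bases before and 50 after the start. Capitals mark matches to 3 short motifs searched on both strands: the GC box, spelled GGGCGG, the TATA box, spelled TATAAA, and the TCF/LEF motif, spelled CTTTG with A or T at each of the next 2 positions; a match on the other strand appears as the reverse complement. In the regions shown, no match overlapped one of another kind. All 4 regions lie on the plus strand.
Tcf7l2, upstream start, chr19:55741560-55741859: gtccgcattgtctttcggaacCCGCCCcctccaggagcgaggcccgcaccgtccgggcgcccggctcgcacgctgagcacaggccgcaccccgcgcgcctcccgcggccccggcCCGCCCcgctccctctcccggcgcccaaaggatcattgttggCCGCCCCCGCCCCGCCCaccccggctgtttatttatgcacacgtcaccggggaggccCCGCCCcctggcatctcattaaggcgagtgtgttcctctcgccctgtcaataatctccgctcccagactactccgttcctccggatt
Tcf7l2, downstream start, chr19:55895071-55895370: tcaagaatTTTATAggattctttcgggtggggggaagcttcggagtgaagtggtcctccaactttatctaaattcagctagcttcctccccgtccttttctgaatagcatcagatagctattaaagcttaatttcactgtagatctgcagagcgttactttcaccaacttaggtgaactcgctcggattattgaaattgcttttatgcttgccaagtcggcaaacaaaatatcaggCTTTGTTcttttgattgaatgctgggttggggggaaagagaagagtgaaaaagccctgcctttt
Tnks2, chr19:36833982-36834281: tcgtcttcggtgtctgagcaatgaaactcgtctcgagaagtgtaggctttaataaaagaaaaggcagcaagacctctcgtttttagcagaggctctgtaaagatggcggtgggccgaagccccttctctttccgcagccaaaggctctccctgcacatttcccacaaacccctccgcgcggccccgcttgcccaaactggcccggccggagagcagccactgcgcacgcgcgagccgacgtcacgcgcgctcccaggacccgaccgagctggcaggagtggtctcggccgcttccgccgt
Ctnnb1, upstream start, chr9:120933150-120933449: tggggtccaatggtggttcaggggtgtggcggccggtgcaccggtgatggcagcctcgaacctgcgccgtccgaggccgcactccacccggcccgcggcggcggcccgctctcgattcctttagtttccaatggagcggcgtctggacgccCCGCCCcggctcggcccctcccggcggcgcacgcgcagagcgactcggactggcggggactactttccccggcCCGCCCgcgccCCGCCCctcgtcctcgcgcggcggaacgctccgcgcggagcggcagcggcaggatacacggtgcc
The upstream Tcf7l2 region held 6 GC boxes, a pair of which share a base, the upstream Ctnnb1 region 3 and the Tnks2 region 0. Another Ctnnb1 start region, which overlaps the one shown and is not printed, held 3 GC boxes and 1 TATA box. Both Ctnnb1 regions lie inside the gene span of the annotation used for positions, which begins at chr9:120929216. The downstream Tcf7l2 start, inside the gene, held 1 TATA box, 1 TCF/LEF motif and 0 GC boxes. Among all 32851 mouse start regions of the same length, 35.7% held a GC box, 13.6% a TATA box and 16.9% a TCF/LEF motif, so these letters are common. Gene-level counts do not separate the starts of Tcf7l2, and a match to these letters is not evidence of a bound site.

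Library totals ran from 18858022 to 31656696 counts, and 16152 genes entered the test. The treatment was checked on 4 Wnt target genes (Axin2, Lgr5, Nkd1 and Sp5), all 4 of which fell in both regions: Lgr5, a gastric stem cell marker, stood at 1.5 ± 0.298 CPM in inhibited antrum against 45.0 ± 4.51 CPM in vehicle antrum, and at 1.00 ± 0.781 CPM in inhibited corpus against 48.2 ± 5.05 CPM in vehicle corpus (SD, n = 3 lines). CPM, the usual per-library scaling of counts, were taken on TMM-scaled totals. Antral vehicle lines 8025 and 8028 carried 17.2% and 6.87% of counts in ribosomal-RNA-like genes, against 0.839% to 3.45% in the other libraries, and both corpus libraries of line 8028 lay toward antrum on the second principal component. Epithelial markers were abundant in every library, with a summed level of 16501 to 18702 CPM in inhibited and 9121 to 10570.2 CPM in vehicle antrum, and of 16545 to 18041 CPM in inhibited and 8696 to 9632 CPM in vehicle corpus. Of 6 such markers, 5 were called higher and 0 lower in antrum, and 5 higher and 1 lower (Epcam) in corpus. Of 7 tested markers of gastric epithelial regions, 6 rose and 1 (Muc6, the gland mucin) fell in both regions. Called genes made up 29.7% of all genes tested in antrum and 30.9% in corpus. Gastrin (Gast), the hormone of antral G cells, was at 0 to 0.167 CPM in antral libraries. Summed fibroblast, smooth muscle and endothelial markers stayed at or below 1.47, 2.11 and 2.13 CPM in all libraries, with at most 1 gene called per list and region, and immune markers at 10.2 to 52.2 CPM, almost all of it Cd68. The part that these shifts in epithelial marker RNA, or any change of cell composition, have in the results below was not tested. In such bulk samples, fewer cells of a type and less RNA per cell cannot be told apart.

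With Wnt inhibition, Tcf7l2 and Ctnnb1 rose and Tnks2 fell in both regions, while Apc, Gsk3b, Csnk1a1, Tnks and Tcf7l1 passed the test in neither. In antrum, 2 of the 10 genes were called higher (Tcf7l2 and Ctnnb1) and 1 lower (Tnks2) at an adjusted p under 0.05 in edgeR; of all genes tested there, 16.3% were called higher and 13.4% lower. In corpus, 4 were called higher (Tcf7l2, Ctnnb1, Gsk3a and Axin1) and 1 lower (Tnks2), where 15.5% of all genes were called higher and 15.4% lower. The shares of members called are thus of the order of the background. Leaving out both libraries of a line left 1 call in antrum (line 8028) and 1 in corpus (line 8026). Without inhibited corpus line 8028, 6 were called in corpus. Counts over all genes moved the same way. In antrum, 5564 of 16445 genes had an unadjusted edgeR p under 0.05 without line 8028, against 6658 of 16152 in the main fit. In corpus it was 4842 of 16345 without line 8026 and 8128 of 16528 without inhibited line 8028, against 6755 of 16152. These changes in count were thus not read as a result about the 10 genes. Their median log2 change was 0.11 in antrum and 0.13 in corpus, against -0.04 over all genes in each region. The median size of their change, regardless of sign, was 0.12 in antrum and 0.20 in corpus, against 0.28 over all genes in each region. The split of all calls depends on the scaling: 55% of antral calls were higher with TMM, 43.6% after upper quartile scaling and 44.4% when only totals were used, and 50.1% of corpus calls with TMM against 26.4% with total counts. With total counts the median of all genes moved to -0.12 in antrum and -0.19 in corpus. The edgeR p-values rest on the spread between lines within groups (3 lines each), estimated over all 4 groups and partly shared across genes. The main fit did not pair the 2 treatments of a line.

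**Figure D1:**
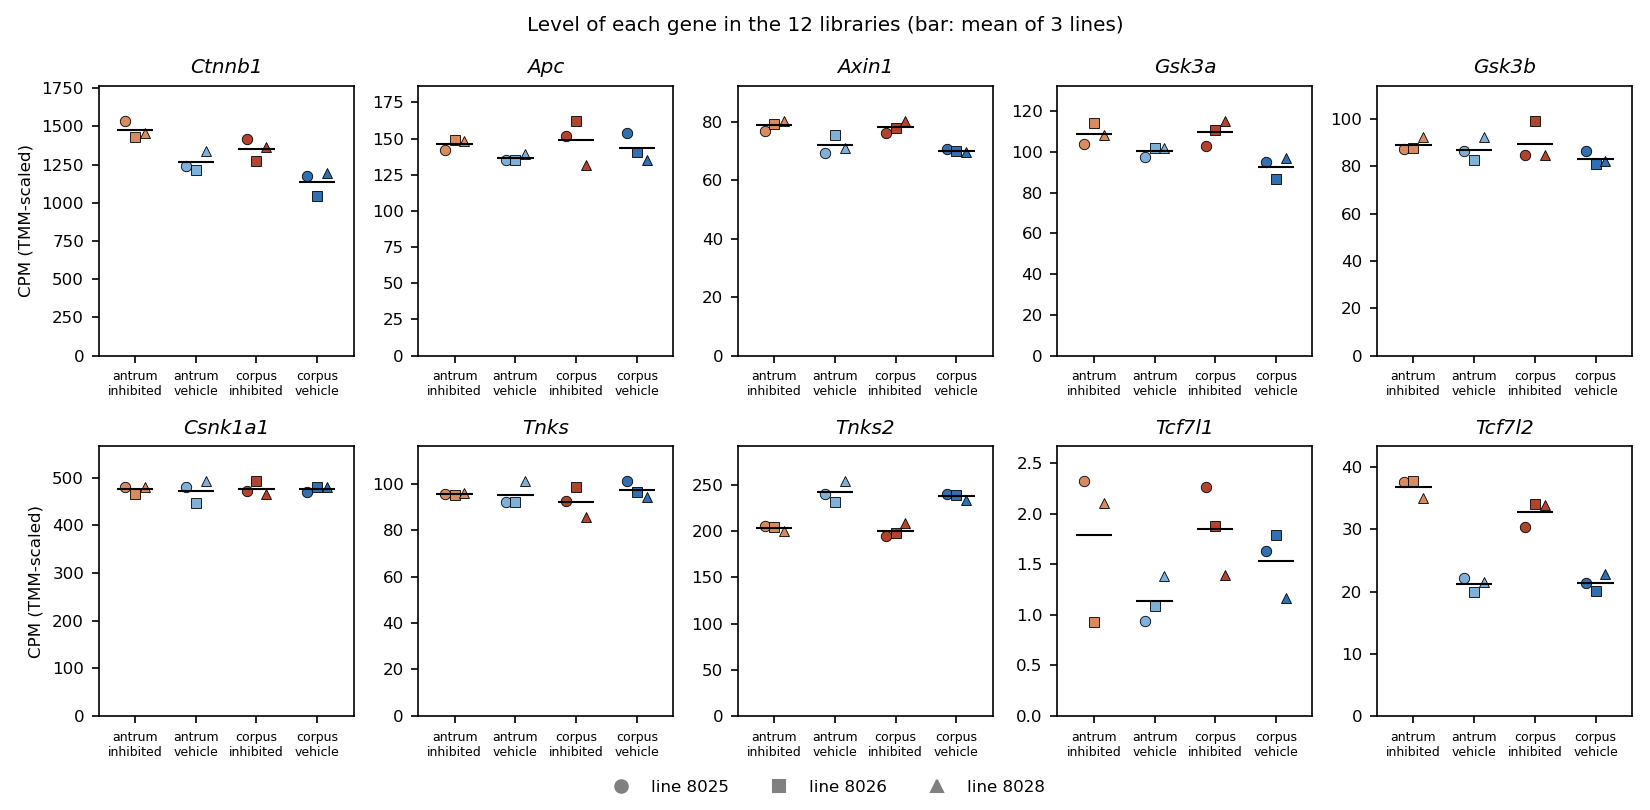
Level of each gene in CPM (TMM-scaled, linear axis from 0) in the 12 libraries, by group; marker shapes give the line and bars the mean of 3 lines. In each region, inhibited libraries lay above all vehicle libraries of that region for Tcf7l2 and Ctnnb1, and below them for Tnks2. The share of all genes that separate in this way was not counted.

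Divided by exonic length so that genes can be compared, the mean level over the 12 libraries was highest for Ctnnb1, at 252 ± 27.2 CPM per kb (SD, n = 12), and lowest for Tcf7l1, at 0.401 ± 0.128 CPM per kb. Csnk1a1 followed Ctnnb1 at 45.3 ± 1.21 CPM per kb and Gsk3a at 35.4 ± 2.85. Tnks2 at 21.2 ± 1.98 and Axin1 at 19.5 ± 1.13 CPM per kb had overlapping ranges (18.7 to 24.4 and 18.1 to 21). Tnks2 was the higher in every vehicle library, with means of 23.2 against 18.8 CPM per kb in antrum and 22.9 against 18.3 in corpus. Axin1 was the higher in every inhibited library, with means of 20.6 against 19.6 in antrum and 20.4 against 19.3 in corpus. This change of order was not tested. Apc at 8.91 ± 0.572 and Gsk3b at 8.87 ± 0.525 CPM per kb overlapped almost entirely. Tnks at 6.38 ± 0.282 and Tcf7l2 at 3.19 ± 0.832 CPM per kb came next. Apart from those 2 overlapping pairs, every neighbouring pair in this order was separate in all 12 libraries. This order, the crossing of Tnks2 and Axin1, and the shares within gene pairs below depend on the exonic lengths used. These lengths merge all annotated transcripts of a gene. Another length was tried only for the TCF/LEF shares.

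Ctnnb1 (ENSMUSG00000006932; GRCm38 chr9:120929216-120960507, plus strand) encodes beta-catenin. In antrum it stood at 1534, 1432 and 1456 CPM in inhibited lines 8025, 8026 and 8028, against 1241, 1216 and 1336 CPM in the same vehicle lines. In corpus the inhibited lines gave 1419, 1273 and 1368 CPM, against 1177, 1044 and 1194 CPM in vehicle. The groups did not overlap in either region, and inhibited exceeded vehicle in all 3 lines of each, by 9% to 23.6% in antrum and 14.6% to 21.9% in corpus. How many of all genes separate in this way, or move alike in all lines, was not counted. For this gene and those below, such separations therefore only describe the values. The log2 change was 0.22 ± 0.072 in antrum (SE; 95% interval 0.06 to 0.38; edgeR adjusted p = 0.0376) and 0.25 ± 0.072 in corpus (0.09 to 0.41; adjusted p = 0.0215). Of all genes tested, 75.1% in antrum and 76.5% in corpus had a lower log2 change. The transcript of the protein that the complex destroys was therefore higher, not lower, in inhibited libraries. This call was near the threshold: it held in 8 of 19 alternatives in antrum and 12 of 18 in corpus, while the value stayed positive in all of them (0.15 to 0.28 and 0.09 to 0.31). With total counts Ctnnb1 changed by 0.15 in antrum (adjusted p = 0.283) and 0.09 in corpus (adjusted p = 0.502), which was above the median of all genes under that scaling. Exons of Ulk4 on the opposite strand overlap it over 759 bases, but Ulk4 had only 0.172% as many counts.

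Apc (ENSMUSG00000005871; chr18:34220924-34322552, plus strand) encodes the tumour suppressor that scaffolds the complex. In antrum it stood at 142, 149 and 148 CPM in inhibited lines 8025, 8026 and 8028, against 135, 135 and 139 CPM in vehicle. Corpus values were 152, 162 and 132 CPM in inhibited lines, against 154, 141 and 135 CPM in vehicle. The antral groups were separate by a small margin and the corpus groups overlapped. Neither change was called: it was 0.10 ± 0.0751 log2 in antrum (edgeR adjusted p = 0.345) and 0.05 ± 0.0749 in corpus (adjusted p = 0.629), and the 95% intervals ran from -0.07 to 0.26 and from -0.11 to 0.22. Without inhibited corpus line 8028 the corpus value was 0.16 (adjusted p = 0.0467), and with total counts it was -0.10.

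Axin1 (ENSMUSG00000024182; chr17:26138688-26195811, plus strand) encodes the scaffold that tankyrases target. It stood at 77.0, 79.2 and 80.3 CPM in inhibited antral lines 8025, 8026 and 8028, against 69.4, 75.6 and 71.0 CPM in vehicle. Corpus values were 76.4, 78.0 and 80.3 CPM in inhibited lines, against 70.8, 70.0 and 69.8 CPM in vehicle. Groups were separate in both regions and all 6 line pairs moved the same way, which was not set against the share of all genes. The change was called in corpus, at 0.16 ± 0.0512 log2 (edgeR adjusted p = 0.0385), and was 0.13 ± 0.0513 in antrum without passing (adjusted p = 0.0772). The corpus call held in only 8 of 18 alternatives, with total counts the corpus value was 0.00, and the antral value passed in 3 of 19. The difference between the regions' effects was -0.03 (95% interval -0.18 to 0.13), so the 2 regions gave no detectable difference in this gene.

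Axin2, the Wnt-induced relative of Axin1, gives the contrast. Per exonic length it stood at 2.25 ± 0.297 CPM per kb in inhibited and 13.7 ± 0.86 in vehicle antrum, and at 1.69 ± 1.5 in inhibited and 12.5 ± 0.727 in vehicle corpus (SD, n = 3). Its log2 change was -2.61 ± 0.425 in antrum (edgeR adjusted p = 0.000864) and -2.88 ± 0.434 in corpus (adjusted p = 0.000513). Axin1 made up 90.2% ± 1.14 of the pair's summed level in inhibited and 57.9% ± 0.932 in vehicle antrum, and 92.7% ± 5.83 in inhibited and 59.5% ± 1.39 in vehicle corpus. The sum of the pair was 22.8 against 32.5 CPM per kb in antrum and 22.1 against 30.8 CPM per kb in corpus, inhibited before vehicle. The log2 ratio of Axin1 to Axin2 was 2.75 higher in antrum and 3.40 higher in corpus after inhibition, with no overlap of groups (exact two-sided permutation p = 0.1 in each region, the smallest that 3 against 3 allows; 0.27 after adjustment over 8 ratio tests). Inhibited corpus line 8028 kept the most Axin2, at 3.40 CPM per kb against 0.674 and 0.98 in the other inhibited corpus lines.

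Gsk3a (ENSMUSG00000057177; chr7:25228258-25237851, minus strand) and Gsk3b (ENSMUSG00000022812; chr16:38089001-38246084, plus strand) encode the paired kinases of the complex. In antrum Gsk3a stood at 104, 114 and 108 CPM in inhibited lines 8025, 8026 and 8028, against 97.6, 102 and 102 CPM in vehicle. In corpus Gsk3a stood at 103, 110.5 and 115 CPM in inhibited lines, against 94.8, 86.4 and 96.9 CPM in vehicle. The groups were separate in both regions. The change was called in corpus, at 0.24 ± 0.0633 log2 (edgeR adjusted p = 0.014; called in 14 of 18 alternatives, but at 0.08 and an adjusted p of 0.552 with total counts), and was 0.11 ± 0.0633 in antrum (adjusted p = 0.202; 0 of 19). The regional difference was not called, at -0.13 with an interval of -0.32 to 0.07. The antisense gene 9130221H12Rik overlaps Gsk3a over 820 exonic bases and had 4.51% as many counts, which could not be separated by strand.

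Gsk3b ranged from 87.2 to 92.3 CPM in inhibited and 82.4 to 92.4 CPM in vehicle antrum. It ranged from 84.7 to 99 CPM in inhibited and 80.9 to 86.2 CPM in vehicle corpus, where inhibited line 8026 alone lay above the vehicle range. Its log2 change was 0.03 (95% interval -0.12 to 0.19) in antrum and 0.11 (-0.05 to 0.26) in corpus, and neither was called; the sign turned with total counts in both regions (-0.04 and -0.05). Per exonic length Gsk3a made up 80.5% ± 0.872 of the 2 kinases in inhibited and 79.6% ± 0.972 in vehicle antrum, and 80.5% ± 1.49 in inhibited and 79.1% ± 0.847 in vehicle corpus. These shares overlapped between treatments in both regions. The log2 ratio of Gsk3a to Gsk3b gave an exact permutation p of 0.3 in antrum and 0.2 in corpus (0.4 and 0.32 after adjustment over 8 ratio tests).

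Csnk1a1 (ENSMUSG00000024576; chr18:61555274-61590061, plus strand) encodes casein kinase 1 alpha, which adds the priming phosphate to beta-catenin. Relative to its mean, its spread over the 12 libraries was the smallest of the 10 genes (42.5 to 46.8 CPM per kb). It stood at 479.5, 466 and 481 CPM in inhibited antral lines 8025, 8026 and 8028, against 479.7, 446 and 492 CPM in vehicle. In corpus it stood at 471, 492 and 466 CPM in inhibited lines, against 469, 481 and 481 CPM in vehicle. The log2 change was 0.01 ± 0.0536 in antrum and 0.00 ± 0.0535 in corpus. With 95% intervals of -0.11 to 0.13 and -0.12 to 0.12, changes beyond these sizes lay outside what the lines allowed under TMM scaling; with total counts the value was -0.06 in antrum and -0.16 in corpus.

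**Figure D2:**
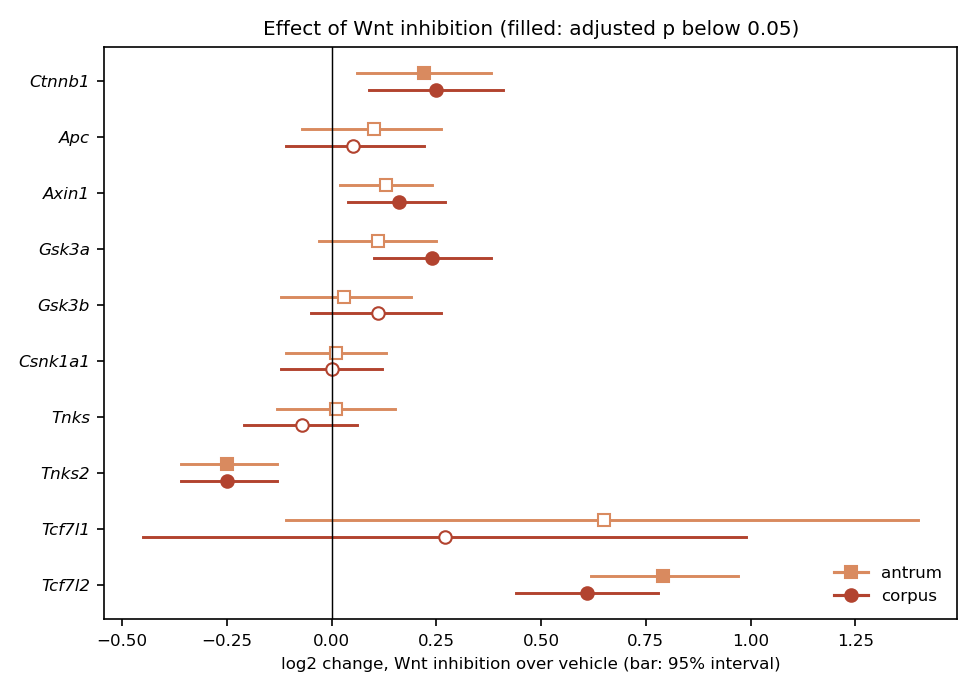
Log2 change with Wnt inhibition over vehicle for each gene, with 95% intervals from the edgeR fit of 12 libraries; filled symbols have an adjusted p under 0.05. Tcf7l2 lies furthest to the right of the called genes, at 0.79 in antrum and 0.61 in corpus, and Tnks2 is the called gene to the left of 0.

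Tankyrases are the enzymes that XAV939 inhibits, and the pair is described here by its RNA alone. Tnks2 (ENSMUSG00000024811; chr19:36834232-36893477, plus strand) stood at 206, 205 and 200.2 CPM in inhibited antral lines 8025, 8026 and 8028, against 240.3, 232 and 254 CPM in vehicle. In corpus it stood at 195, 198 and 209 CPM in inhibited lines, against 240.3, 239 and 234 CPM in vehicle. No inhibited library reached any vehicle library in either region, and all 6 line pairs fell, by 11.3% to 21% in antrum and 10.4% to 19% in corpus. The log2 change was -0.25 ± 0.0523 in each region (edgeR adjusted p = 0.0044 in antrum and 0.00417 in corpus). Of all genes tested, 31.6% in antrum and 30.4% in corpus had a lower log2 change, so a fall of this size was common. The call held in 17 of 19 antral and 16 of 18 corpus alternatives. In antrum it was lost when line 8028 was left out in both treatments (-0.20, adjusted p = 0.061) and without vehicle lines 8025 and 8028 (-0.18, adjusted p = 0.129), the libraries with most ribosomal-RNA-like counts, and in corpus when line 8025 was left out in both treatments (-0.22, adjusted p = 0.0524) and likewise of line 8026 (-0.23, adjusted p = 0.062).

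Tnks (ENSMUSG00000031529; chr8:34826460-34965690, minus strand) stood at 95.7, 95.1 and 96.2 CPM in inhibited antral lines 8025, 8026 and 8028, against 92.1, 92.3 and 101 CPM in vehicle. Corpus values were 92.7, 98.6 and 85.7 CPM in inhibited lines, against 101, 96.3 and 94.2 CPM in vehicle. The groups overlapped in both regions. Its log2 change was 0.01 in antrum (95% interval -0.13 to 0.15; edgeR adjusted p = 0.919) and -0.07 in corpus (-0.21 to 0.06; adjusted p = 0.404), and the antral sign turned with upper quartile scaling and total counts (-0.04 and -0.06). Tnks made up 24.7% ± 0.397 of tankyrase transcripts per exonic length in inhibited and 21.5% ± 0.36 in vehicle antrum, and 24.4% ± 1.88 in inhibited and 22.2% ± 0.443 in vehicle corpus. The antral shares did not overlap and the corpus shares did. The log2 ratio of Tnks to Tnks2 gave an exact two-sided permutation p of 0.1 in antrum and 0.2 in corpus (0.27 and 0.32 after adjustment over 8 tests). Tnks2 was the more abundant tankyrase in every library, at 74.1% to 78.9% of the pair.

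Tcf7l2 (ENSMUSG00000024985; chr19:55741820-55933654, plus strand) encodes the TCF factor best known from intestinal crypts, which recruits beta-catenin to Wnt target genes and represses them without it. It stood at 37.6, 37.7 and 35.0 CPM in inhibited antral lines 8025, 8026 and 8028, against 22.2, 19.9 and 21.5 CPM in vehicle. In corpus it stood at 30.3, 34.0 and 33.9 CPM in inhibited lines, against 21.3, 20.1 and 22.9 CPM in vehicle. Every inhibited library lay above every vehicle library, across both regions as well as within them. The fold was 1.73 in antrum (log2 change 0.79 ± 0.0789, 95% interval 0.62 to 0.97, edgeR adjusted p = 2.88e-05) and 1.53 in corpus (0.61 ± 0.0783, 0.44 to 0.78, adjusted p = 0.000163). Within lines it was 62.6% to 89.0% higher in antrum and 42.4% to 69.2% higher in corpus. Among all genes, 93.3% in antrum and 90.7% in corpus had a lower log2 change. This call held in all 19 antral and all 18 corpus alternatives, with values of 0.73 to 0.89 and 0.46 to 0.69.

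**Figure D3:**
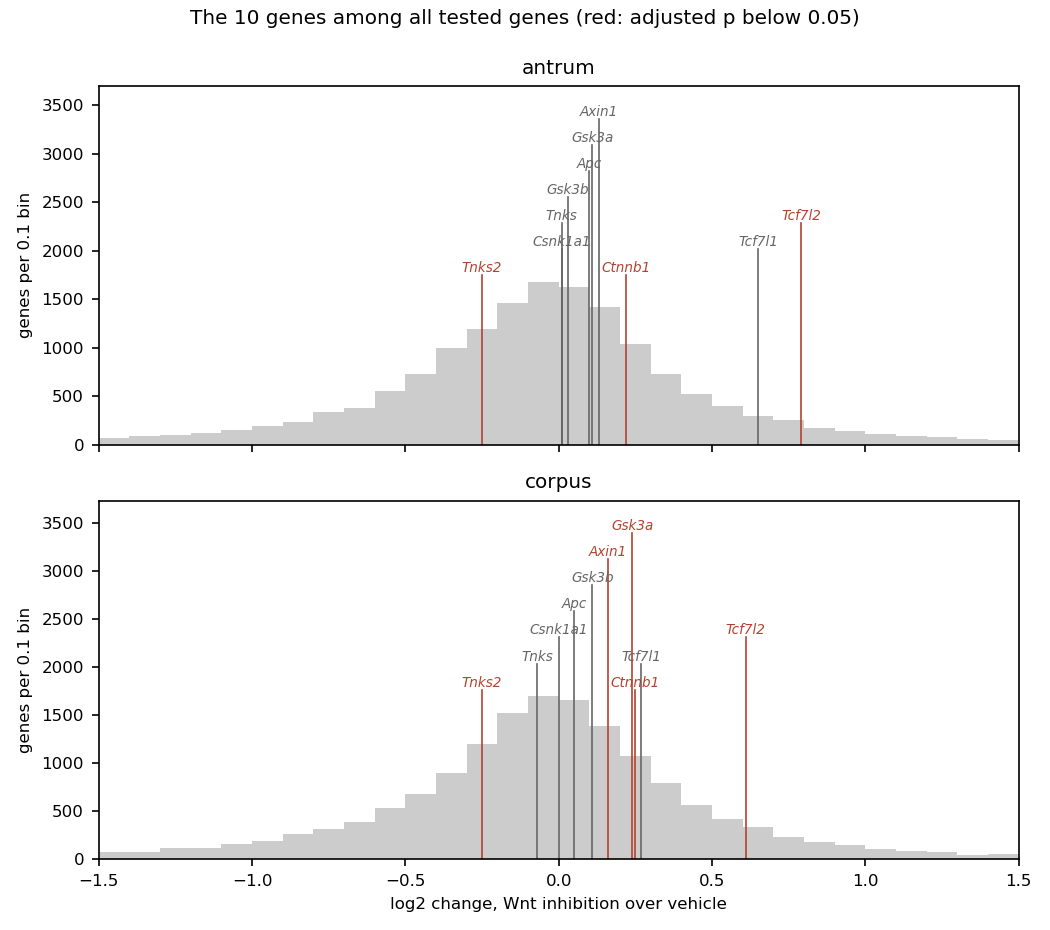
Histogram of log2 changes of all 16152 tested genes (0.1-wide bins; the axis runs from -1.5 to 1.5 and genes beyond it are not drawn) with the 10 genes marked; red marks an adjusted p under 0.05, and line heights carry no value. Most of the 10 genes sit within the bulk of the distribution; Tcf7l2 in both regions and the uncalled Tcf7l1 in antrum, at 0.65, lie on its right shoulder.

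Tcf7l1 (ENSMUSG00000055799; chr6:72626378-72789254, minus strand) encodes a TCF that acts mainly as a repressor in stem cells. It was barely expressed, with 16 to 66 counts per library. It stood at 2.32, 0.933 and 2.11 CPM in inhibited antral lines 8025, 8026 and 8028, against 0.944, 1.09 and 1.38 CPM in vehicle. In corpus it stood at 2.27, 1.88 and 1.39 CPM in inhibited lines, against 1.63, 1.79 and 1.17 CPM in vehicle. Groups overlapped in both regions, with inhibited antral line 8026 the lowest of all 12 libraries. The log2 change was 0.65 ± 0.342 in antrum (edgeR adjusted p = 0.18) and 0.27 ± 0.329 in corpus (adjusted p = 0.574), with intervals of -0.11 to 1.4 and -0.45 to 0.99, which are too wide to show or to leave out a sizeable change at this depth. Without inhibited line 8026 the antral value was 0.96 (adjusted p = 0.033). The antisense gene Gm15401 shares 179 exonic bases with Tcf7l1 and had 51.9% as many counts over the 12 libraries and 21.4% to 152% in single libraries, so part of this signal is uncertain.

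Seen within the TCF/LEF family, the rise of Tcf7l2 came with a fall of Tcf7, a Wnt-induced member of the family. Tcf7 fell by 1.93 ± 0.331 on the log2 scale in antrum (edgeR adjusted p = 0.00121), with a log2 change of -2.14 ± 0.339 in corpus (adjusted p = 0.000698). Per exonic length Tcf7 stood at 3.50 ± 0.149 CPM per kb in inhibited and 13.3 ± 0.873 in vehicle antrum, and at 2.44 ± 1.7 in inhibited and 10.9 ± 1.32 in vehicle corpus (SD, n = 3). Tcf7l2 stood at 4.19 ± 0.174 CPM per kb in inhibited and 2.42 ± 0.136 in vehicle antrum, and at 3.73 ± 0.237 in inhibited and 2.44 ± 0.163 in vehicle corpus. The share of Tcf7l2 in the family was thus 51.5% ± 2.52 in inhibited and 15.1% ± 1.3 in vehicle antrum, and 58.1% ± 11.5 in inhibited and 17.8% ± 1.11 in vehicle corpus. The summed family was 8.15 ± 0.349 CPM per kb in inhibited and 16 ± 0.752 in vehicle antrum, and 6.65 ± 1.74 in inhibited and 13.7 ± 1.38 in vehicle corpus. Lef1 made up at most 0.187% of the family in any library. Inhibited corpus line 8028 kept the most Tcf7 (4.40 CPM per kb against 1.27 and 1.66 in the other inhibited corpus lines) and had the lowest Tcf7l2 share of the inhibited libraries, at 44.8%. These shares depend on the gene length used: with the longest transcript they were 69.7% in inhibited and 28.2% in vehicle antrum, and 74.3% in inhibited and 32.4% in vehicle corpus. The log2 ratio of Tcf7l2 to Tcf7l1 was 0.24 higher in antrum and 0.34 higher in corpus after inhibition, with overlapping groups. The exact permutation p was 0.8 in antrum and 0.4 in corpus (0.8 and 0.46 after adjustment over 8 ratio tests).

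**Figure D4:**
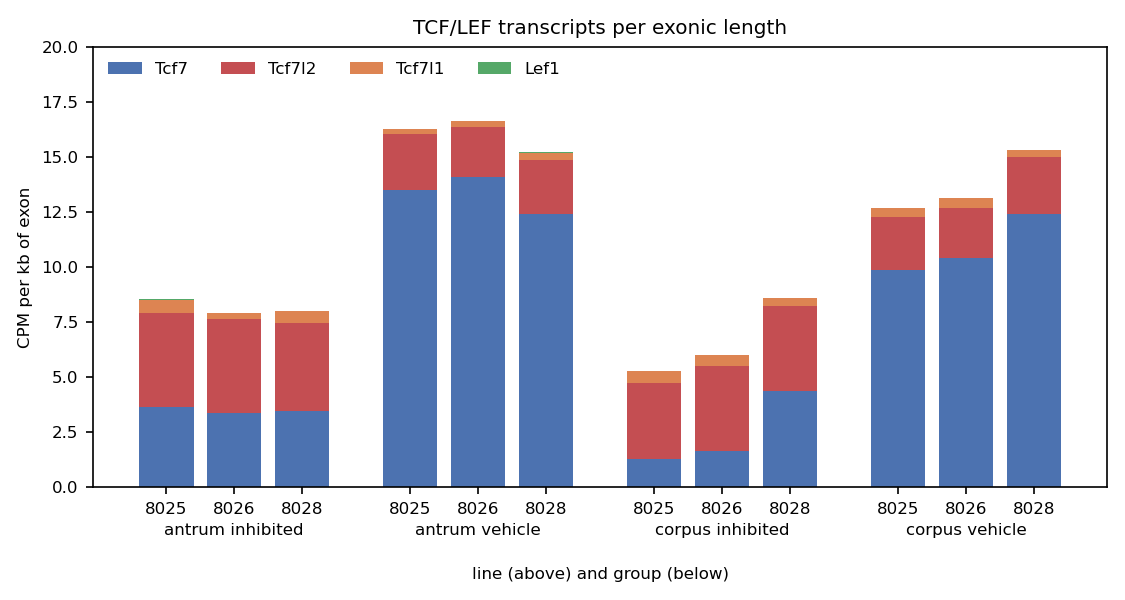
Stacked level of the 4 TCF/LEF genes in CPM per kb of exon in each library (linear axis from 0), by group and line. The Tcf7 part is shorter and the Tcf7l2 part taller in inhibited than in vehicle libraries, and the bars sum to 5.31 to 8.61 in inhibited and 12.7 to 16.6 in vehicle libraries.

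The regions were compared for the same genes. The difference of the inhibition effect between antrum and corpus was called for 0 of the 10 genes in edgeR and for 0.00619% of all genes (7 genes with line as a replicate block), and 0 of the 10 had an unadjusted p under 0.05 in edgeR, DESeq2 or limma-voom. The largest differences were those of Tcf7l1 (0.38, 95% interval -0.67 to 1.42) and Tcf7l2 (0.18, -0.06 to 0.43). Between antrum and corpus in vehicle, 0 of 10 genes were called, against 0.198% of all genes. There Ctnnb1 was 0.15 log2 higher in antrum (1264 ± 63.1 CPM against 1138 ± 82 CPM in corpus; edgeR adjusted p = 0.338) and Gsk3a 0.12 higher (100.4 ± 2.49 against 92.7 ± 5.57 CPM; adjusted p = 0.396), in both cases without overlap of the groups. After inhibition 0 of 10 were called, against 0.0619% of all genes; Ctnnb1 was 0.12 higher in antrum (1474 ± 53 against 1353 ± 73.7 CPM; adjusted p = 0.606) and Tcf7l2 0.17 higher (36.8 ± 1.53 against 32.7 ± 2.08 CPM; adjusted p = 0.546), again without overlap. With 3 libraries against 3, an exact permutation p cannot fall below 0.1 even where groups do not overlap. The share of all genes without overlap was not counted, so these separations were not read as regional differences. In either comparison, no member had an unadjusted p under 0.05 in edgeR with TMM. DESeq2, limma-voom and edgeR with RLE scaling gave 1 in each. In vehicle, upper quartile scaling, line number as a replicate block and leaving out vehicle corpus line 8028 also gave 1. After inhibition, so did leaving out inhibited corpus line 8026 or 8028, inhibited antral line 8028, or both inhibited libraries of line 8028. Leaving out both corpus libraries of line 8028 gave 2 in vehicle and 1 after inhibition. The count over all genes moved with line 8028: without both of its corpus libraries 1080 genes were called in vehicle and 2386 after inhibition, with 0 members among them in each. Differences of the other members in these comparisons lay between -0.42 (Tcf7l1 in vehicle) and 0.07 (Gsk3b in vehicle). These comparisons share libraries with the inhibition comparisons.

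Other regulators of the complex were counted in a list of 25 genes, of which 23 were tested: 2 rose and 3 fell in antrum, and 5 rose and 3 fell in corpus, with a median log2 change of 0.06 and 0.07, against -0.04 over all genes. Of all genes tested, 29.7% were called in antrum and 30.9% in corpus, so these 5 and 8 calls of 23 are not above the background in antrum and are near it in corpus. Ppp2r5b, a regulatory subunit of the phosphatase PP2A, stood at 64.3 ± 3.17 CPM in inhibited and 29.3 ± 2.5 in vehicle antrum, and at 61.5 ± 3.21 in inhibited and 26.6 ± 2.37 in vehicle corpus (log2 change 1.14 and 1.21; edgeR adjusted p = 4.66e-06 and 3.87e-06). Amer1, which brings the complex to the membrane and binds APC, fell by 0.90 on the log2 scale in antrum (adjusted p = 5.32e-06) and by 0.69 in corpus (adjusted p = 2.99e-05). Of 5 casein kinase 1 genes in the list, Csnk1e fell by 0.39 on the log2 scale in each region (adjusted p = 0.00119 in antrum and 0.00127 in corpus) and Csnk1g3 rose by 0.39 in antrum (adjusted p = 0.000471) and 0.34 in corpus (adjusted p = 0.00111). The other 3 did not pass, with log2 changes in antrum and corpus of -0.02 and -0.04 for Csnk1d, -0.09 and -0.21 for Csnk1g1, and 0.02 and 0.11 for Csnk1g2. The rest of the list's antral calls was Axin2. In corpus the other calls were Ppp2ca (0.20), Ppp2cb (0.28) and Ppp2r5a (0.28), subunits of PP2A, all higher. In antrum the same subunits stood at 0.06, 0.06 and 0.11 without passing (these 3 were named after their values were seen). The list's remaining PP2A subunits passed in neither region. In antrum and corpus, Ppp2r1a stood at -0.09 and -0.10, Ppp2r1b at 0.07 and 0.03, and Ppp2r5c at 0.08 and -0.03. Ppp2r5d stood at -0.02 and -0.04, and Ppp2r5e at 0.13 and 0.07. Without both corpus libraries of line 8026, 5 of the list passed in corpus. Over all genes, 4842 of 16345 then had an unadjusted edgeR p under 0.05, against 6755 of 16152 in the main fit. The lists were drawn up with earlier results of these data known.

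Genes of the ubiquitin ligases of beta-catenin and Axin, subunits included, were set against the same shares of all genes (29.7% and 30.9%). They gave 0 calls among 9 genes in antrum and 2 in corpus. In corpus Siah2 rose by 0.41 (edgeR adjusted p = 0.00393) and Skp1a fell by 0.22 (adjusted p = 0.0104). In antrum Siah2 stood at 0.09 (adjusted p = 0.478) and Skp1a at -0.10 (adjusted p = 0.198). The corpus count was 0 without both libraries of line 8026, when 4842 of 16345 genes had an unadjusted edgeR p under 0.05. With line as a replicate block the antral count was 1, when 7982 of 16152 genes did. Among 18 tested nuclear partners of beta-catenin, 1 rose and 3 fell in antrum and 1 rose and 1 fell in corpus. With line as a replicate block, 6 passed in corpus, and without inhibited corpus line 8028 the count was 8. Over all genes, 8211 of 16152 and 8128 of 16528 had an unadjusted edgeR p under 0.05 there, against 6755 of 16152 in the main fit. These higher counts were thus not read as a result about nuclear partners. Without any 1 antral vehicle library 2 passed in antrum, and without both antral libraries of line 8025 or of line 8028 the count was 1. Without those antral pairs, 4906 of 16432 and 5564 of 16445 genes had an unadjusted edgeR p under 0.05. The main antral fit gave 6658 of 16152. Besides Tcf7, the co-activator Bcl9 fell by 0.47 in antrum (adjusted p = 0.0137) and the co-repressor Tle1 by 0.34 (adjusted p = 0.0222), while the short Groucho-family member Tle5 rose by 0.21 in antrum (adjusted p = 0.0316) and 0.31 in corpus (adjusted p = 0.00382). In corpus Bcl9 and Tle1 stood at -0.33 and -0.17 without passing. The antral call of Tle5 held in only 7 of 19 alternatives (adjusted p up to 0.278), that of Tle1 in 10 and that of Bcl9 in 14.

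Of 14 tankyrase partners and other poly-ADP-ribose enzymes, 2 rose and 4 fell in antrum and 2 rose and 6 fell in corpus, with median log2 changes of -0.15 and -0.13, where 16.3% of all genes were called higher and 13.4% lower in antrum, and 15.5% higher and 15.4% lower in corpus. Leaving out libraries lowered these counts, to 2 calls in antrum without both libraries of line 8025 and 2 in corpus without both of line 8026. Counts over all genes fell as well. In antrum, genes with an unadjusted edgeR p under 0.05 went from 6658 of 16152 to 4906 of 16432. In corpus they went from 6755 of 16152 to 4842 of 16345. Tnks1bp1, which binds tankyrase, stood at 324 ± 7.27 CPM in inhibited and 223 ± 8.38 in vehicle antrum, and at 331 ± 19 in inhibited and 232 ± 20.5 in vehicle corpus (log2 change 0.54 and 0.51; edgeR adjusted p = 2e-04 and 0.000263). Parp1, the main poly-ADP-ribose polymerase of DNA repair, fell by 0.66 in antrum (adjusted p = 0.0121) and 0.77 in corpus (adjusted p = 0.00502), and Parp3 rose by 0.59 and 0.66 (adjusted p = 0.0217 and 0.0125). The angiomotins Amot and Amotl1, Hippo-pathway proteins that tankyrases target, fell by 0.68 and 0.73 in antrum and by 0.76 and 0.62 in corpus. Among these, Parp3 was called in 11 of 19 antral alternatives, Parp1 in 13 of 19, and Amotl1 in 12 of 18 corpus alternatives. At cell junctions, where the other pool of beta-catenin sits, 3 of 6 genes rose and 1 fell in each region. Without both antral libraries of line 8028 there was 1 call, when 5564 of 16445 genes had an unadjusted edgeR p under 0.05. Without both corpus libraries of line 8026 there were 2 calls. Cdh1 is also among the epithelial markers. Alpha-catenin (Ctnna1), which ties beta-catenin to actin, rose by 0.41 in antrum (adjusted p = 0.000597) and 0.39 in corpus (adjusted p = 0.000772). Plakoglobin (Jup), the close relative of beta-catenin, rose by 0.25 and 0.31, and E-cadherin (Cdh1) by 0.20 and 0.19. P-cadherin (Cdh3) fell by 1.09 in antrum (adjusted p = 0.00928) and 0.97 in corpus (adjusted p = 0.0136). The Cdh1 call held in 9 of 19 antral and 9 of 18 corpus alternatives. With total counts Cdh1 was no longer called in either region, at an adjusted p of 0.271 in antrum and 0.818 in corpus.

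For the members called alike in both regions, the genes with the most similar profile over the 12 libraries were sought among 11030 genes by the root mean square difference of mean-centred log2 CPM. For Ctnnb1 they were Reep3 (0.0564), Rap1b (0.0581) and Pak1 (0.059), where the spread of Ctnnb1 about its own mean was 0.152. For Tnks2 they were Apaf1 (0.0362), Ppib (0.037) and Rad54l2 (0.0371), against a spread of 0.129. For Tcf7l2 they were Senp6 (0.0675), Rab25 (0.0681) and Nfe2l2 (0.0709), against a spread of 0.362. The libraries share their treatment groups, so a small difference describes these 12 libraries only.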

How the data were processed

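PolyA RNA was sequenced, per the labels' protocols. The authors deposited expected counts per gene, all whole numbers; the tools listed, per the submitters' processing notes, are RSEM 1.3.3, STAR 2.7.8a, FastQC 0.11.8 and cutadapt 2.3, on GRCm38. Neither annotation release nor strandedness is stated there. The 5 transgene rows (2 counts) were left out. The members and lists were chosen with earlier results of these data known.

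Testing used edgeR 4.0.16 under R 4.3.3, with TMM scaling, filterByExpr, and a robust quasi-likelihood fit of 12 libraries with 8 residual degrees of freedom, two-sided, with Benjamini-Hochberg adjustment over 16152 genes at 0.05. CPM use TMM-scaled totals, and log2 CPM a prior count of 2. Exonic lengths and positions come from GENCODE mouse release 21, start regions from RefSeq. Ratio tests were exact permutations. Alternatives used DESeq2 1.42.0, limma 3.58.1, other scalings and filters, and left-out libraries. All 10 members are named; from each list up to 5 called genes with at least 5 CPM were taken by size of change, and smaller calls were named after their values were seen.

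Each line was treated both ways within a region, and its libraries deviated together (r of 0.157 to 0.544 over genes). Libraries with one number in both regions had r of -0.104 to 0.277 and were not paired; nothing states whether a shared number marks the same mouse. Replicate libraries differed by more than counting noise, with a chi-square of 10.8 to 306 for each degree of freedom. At these totals, 3 counts correspond to 0.0889 to 0.177 CPM, which covers counting error only.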

Additional observations from a re-analysis of the deposited data

How the results depend on the processing

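Tcf7l2 was called in both regions in every alternative run, and no value that turned its sign was called after the turn. With line as a replicate block within region, which the labels' treatment of the same lines pairs, 6594 genes were called in antrum and 7022 in corpus, and the calls of the 10 members stood as before; the count of called regional differences was 7. Line number across regions, which was not taken as a pairing, gave 69 genes in vehicle and 37 after inhibition as a replicate block.  In antrum, leaving out libraries gave 2710 to 4207 genes and 1 to 3 members, and dropping antral vehicle lines 8025 and 8028 (chosen, like dropping both corpus libraries of line 8028, once the data had been seen) 2740 genes and 1 member. In corpus, leaving out libraries gave 2550 to 6888 genes and 1 to 6 members, and 2 members were called with only the 6 libraries compared and 2 with total counts. For antrum against corpus in vehicle, the count was 477 with DESeq2, 17 with RLE, 18 with upper quartile, 61 with total counts, 68 with no low-count filter, 21 with limma-voom, 18 with only the 6 libraries compared, 1 to 70 with libraries left out, 2 without antral vehicle lines 8025 and 8028 and 1080 without both corpus libraries of line 8028. After inhibition it was 147 with DESeq2, 16 with no filter, 0 with only 6 libraries, 3 with total counts, 3 with upper quartile, 0 to 1883 with libraries left out and 2386 without both corpus libraries of line 8028. For the difference of effects it was 7 with DESeq2 and 0 to 5 with libraries left out.

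Signs turned only for uncalled values and for Axin1 in corpus, which was 0.00 with total counts. In corpus, Apc was -0.10 and Gsk3b -0.05 with total counts; Csnk1a1 was 0.02 with DESeq2, 0.02 with RLE and 0.00 with no filter; with libraries left out Apc ran from -0.02 to 0.16, Csnk1a1 from -0.02 to 0.05 and Tnks from -0.13 to 0.01. In antrum, total counts gave Csnk1a1 -0.06, Gsk3b -0.04 and Tnks -0.06, and upper quartile -0.04, -0.02 and -0.04; with libraries left out Csnk1a1 ran from -0.02 to 0.04 and Tnks from 0.00 to 0.06. Between regions after inhibition, upper quartile gave Axin1 -0.02 and Tnks2 0.00, DESeq2 gave Csnk1a1 0.01 and Gsk3b 0.00, RLE gave Csnk1a1 0.00, and dropping both corpus libraries of line 8028 gave Gsk3a 0.02 and Tnks 0.00. Leaving out libraries there gave Apc -0.11 to 0.05, Axin1 0.00 to 0.03, Csnk1a1 -0.02 to 0.05, Gsk3a -0.04 to 0.03, Gsk3b -0.07 to 0.09, Tcf7l1 -0.34 to 0.29 and Tnks 0.00 to 0.12. In vehicle, total counts gave Axin1 -0.05, Gsk3b -0.02 and Tnks2 -0.06; dropping antral vehicle lines 8025 and 8028 gave Gsk3b -0.01 and Tnks2 -0.04; dropping both corpus libraries of line 8028 gave Tcf7l2 0.04. Leaving out libraries there gave Csnk1a1 -0.04 to 0.04, Tcf7l2 -0.06 to 0.04, Tnks -0.10 to 0.02 and Tnks2 -0.02 to 0.06. For the difference of effects, total counts gave Axin1 0.05, Ctnnb1 0.06 and Gsk3b 0.01; upper quartile gave Csnk1a1 -0.02 and Tnks2 -0.03; Tnks2 was 0.00 with DESeq2, RLE and a minimum of 1 CPM in 3 libraries; dropping antral vehicle lines 8025 and 8028 gave Ctnnb1 0.03 and Gsk3b 0.00. Leaving out libraries there gave Apc -0.04 to 0.12, Axin1 -0.06 to 0.01, Csnk1a1 -0.03 to 0.04, Ctnnb1 -0.08 to 0.03, Gsk3b -0.14 to 0.02 and Tnks2 -0.03 to 0.05. The cause of these turns was not tested. With 3 lines per group, small changes could not be told from none, and the low counts of Tcf7l1 limit it further.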
